A study of Mus musculus with 18 samples.

Results

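Fam134b, Gpcpd1, Acer2, Klhdc7a, Pik3ap1, Rassf3 and Arsa are 7 of the 23930 genes measured in mouse liver. They were chosen by name because YAP overexpression moved each of them on 1 of 2 diets in an earlier fit of these data. The values behind that choice are therefore given below as a description. On the other diet the sizes and intervals are read, and tests concern the knockout and the ethanol response of knockouts. All 7 were among the 11720 genes with at least 1 CPM (reads of a gene scaled to the library total) in at least 3 of the 18 libraries. Fam134b, Gpcpd1 and Acer2 were chosen on the ethanol diet, where they were lower with YAP overexpression. Klhdc7a, Pik3ap1, Rassf3 and Arsa were chosen on the pair-fed diet, where they were higher with it.

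YAP switches on growth genes through TEAD factors on DNA, and the MST and LATS kinases of the Hippo pathway hold it back. The 7 genes are not usual readouts of this pathway. Fam134b (now Retreg1) encodes a receptor that directs sheets of endoplasmic reticulum (ER) to autophagy. Gpcpd1 encodes a phosphodiesterase that splits glycerophosphocholine, a breakdown product of phosphatidylcholine. Acer2 encodes an alkaline ceramidase of the Golgi that releases sphingosine, and Arsa encodes arylsulfatase A, the lysosomal enzyme that removes sulfate from sulfatides. Pik3ap1 encodes an adaptor (BCAP) that links receptors to phosphoinositide 3-kinase, best known in B cells and myeloid cells. Rassf3 belongs to the Ras association domain family, several of whose proteins bind MST kinases. Klhdc7a encodes a kelch domain protein.

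All mice were Yap fl/fl and were injected when 8 weeks old with an adeno-associated virus whose TBG promoter is active in hepatocytes. AAV-TBG-YAP-P2A-EGFP gave YAP overexpression on top of the floxed alleles, AAV-TBG-Cre gave the Yap knockout, and AAV-TBG-GFP marked the controls. The knockout virus was given at a dose of 0.5 and the other two viruses at a dose of 2, both in the labels' unit of genome copies, so that in the knockout comparisons dose and deletion cannot be told apart. From 2 weeks after the injection the mice were acclimated to liquid diet for 5 days. They then took Lieber-DeCarli ethanol diet, ended by an ethanol gavage of 5 g/kg, or pair-fed control diet, ended by maltose-dextrin, for 4 weeks, and died 9 hours after the gavage. The 6 groups were thus YAP overexpression, Yap knockout and control, each ethanol-fed or pair-fed, with 3 libraries each. Whether libraries came from separate animals is not stated, and p-values measure the spread between libraries.

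The libraries came from a panel that reads 1 amplicon per gene and held 4.68 to 5.81 M reads. A count of 3 reads corresponded to 0.517 to 0.641 CPM, far below every value of the 7 genes. Yap1 fell in the knockout on both diets (log2 change -3.57, adjusted p = 0.000177 by limma on ethanol, and -2.74, adjusted p = 0.00945 pair-fed). In YAP-overexpressing livers Yap1 reached 106.4 to 143.7 CPM on ethanol, against 58.1 to 66.6 CPM in ethanol-fed controls. Pair-fed overexpression library 1 held 57.6 CPM of Yap1, within the 51.5 to 60.7 CPM of pair-fed controls, while libraries 2 and 3 held 155 and 214 CPM. Neither difference in Yap1 passed the threshold (adjusted p = 0.449 on ethanol and 0.342 pair-fed, limma), and it is not stated which species' YAP the transgene carries or where the amplicon lies. The libraries also differed in sex chromosome transcripts. Xist exceeded Ddx3y in all 3 pair-fed knockout libraries and in pair-fed control libraries 2 and 3, and in none of the other 13 libraries; these 5 are called libraries with Xist below. Comparisons within the ethanol diet are therefore free of this difference, whereas those that use pair-fed controls or pair-fed knockouts carry it.

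Promoter sequence from RefSeq (GRCm38.p6) was at hand for 5 of the genes, with 8 annotated starts in all, of which Fam134b had 4. Within 250 bases before the start, the TEAD motif CATTCC, searched on both strands, was in 0 of the 8 windows and in 12.6% of 32851 mouse promoters. The unfolded protein response element TGACGTGG was also in 0 of the 8 windows and in 0.563% of all promoters, and the ER stress response element (CCAAT, 9 arbitrary bases, CCACG) was in 0 of 8 and 0.113%. The palindrome CACGTG, which reads the same on both strands, an E-box bound by basic helix-loop-helix factors, was in 3 of the 8 windows and in 6.02% of all promoters. It lay 188 bases before the fourth annotated start of Fam134b, 172 before that of Pik3ap1 and 16 before that of Arsa. The stretches that hold it are shown with the E-box in capitals, beside the last 100 bases before the starts of Acer2 and Klhdc7a, which hold none of these letters in their windows.
Fam134b, chr15:25942464-25942523, plus strand: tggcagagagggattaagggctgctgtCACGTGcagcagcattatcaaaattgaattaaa
Pik3ap1, chr19:41385242-41385301, minus strand: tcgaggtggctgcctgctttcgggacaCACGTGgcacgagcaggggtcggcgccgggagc
Arsa, chr15:89477425-89477467, minus strand: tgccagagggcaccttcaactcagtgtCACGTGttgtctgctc
Acer2, chr4:86874314-86874413, plus strand: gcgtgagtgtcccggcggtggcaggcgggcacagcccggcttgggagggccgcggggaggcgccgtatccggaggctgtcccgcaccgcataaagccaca
Klhdc7a, chr4:139968027-139968126, minus strand: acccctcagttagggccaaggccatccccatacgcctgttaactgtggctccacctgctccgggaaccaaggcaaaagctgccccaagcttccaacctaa
A match describes these letters and is no evidence of binding.

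**Figure D1:**
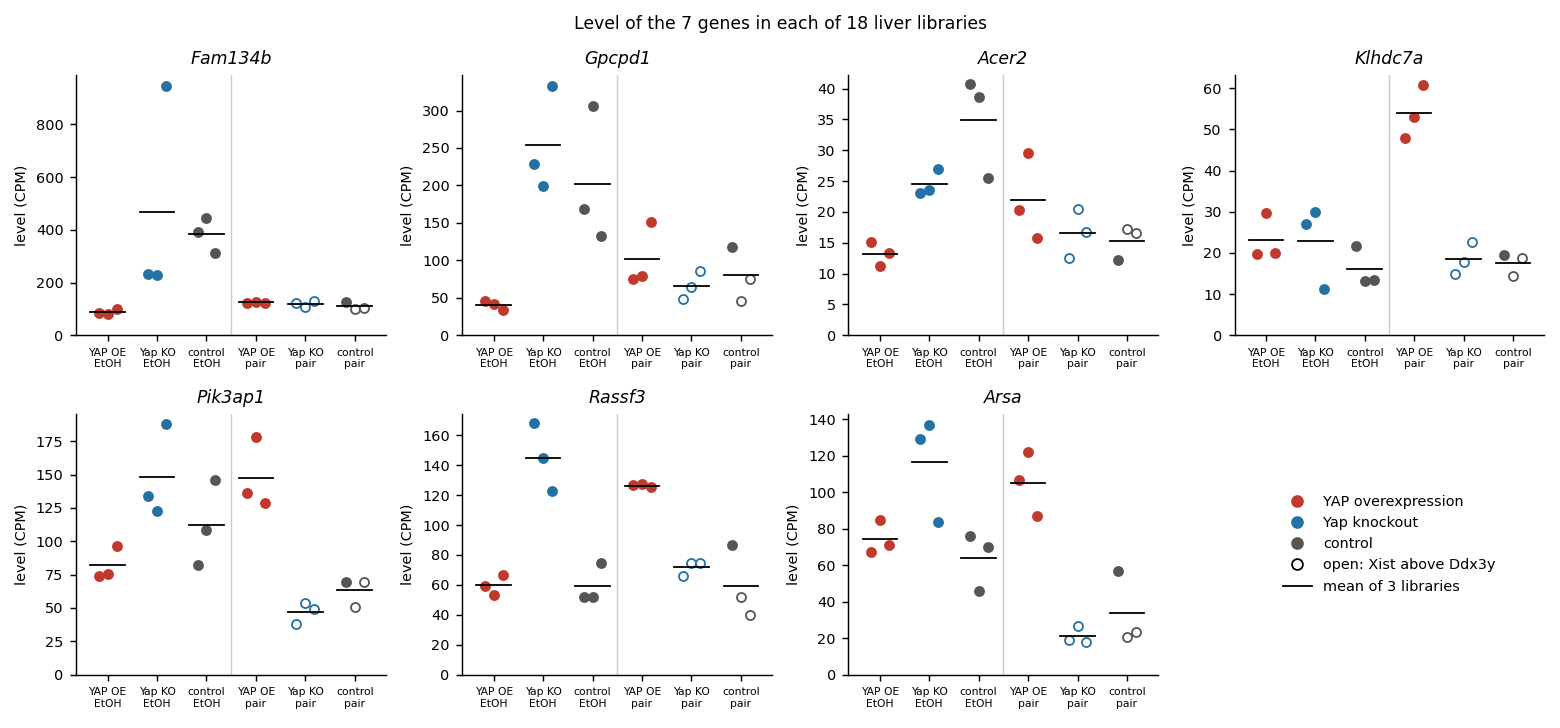
Level in CPM (y axis, from 0, a scale of its own for each gene) of the 7 genes in each of 18 libraries, by group on the x axis (YAP OE, YAP overexpression; EtOH, ethanol-fed; pair, pair-fed); a point is 1 library, a line the mean of 3, and an open point a library with Xist above Ddx3y. Fam134b is at 82.3 to 97.8 CPM in ethanol-fed overexpression libraries, below all 15 other libraries, and Klhdc7a is at 47.9 to 60.9 CPM in pair-fed overexpression libraries, above all 15 others.

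The first set holds the ER-phagy receptor, the phosphodiesterase and the ceramidase, chosen for low levels in ethanol-fed overexpressing livers. Fam134b measured 83.2, 82.3 and 97.8 CPM in ethanol-fed overexpression libraries, against 391, 446 and 310 CPM in ethanol-fed controls. The libraries of the groups lay far apart, and the log2 change, on the log2(CPM + 1) scale used throughout, was -2.10 ± 0.35 (SE). Gpcpd1 measured 45.7, 41.3 and 34.1 CPM in ethanol-fed overexpression libraries, against 169, 306 and 132 CPM in ethanol-fed controls. Here the controls spread widely, with library 2 highest, yet did not overlap the overexpression libraries (log2 change -2.21 ± 0.35). Acer2 measured 15.2, 11.2 and 13.3 CPM in ethanol-fed overexpression libraries, against 40.8, 38.6 and 25.5 CPM in ethanol-fed controls. The groups did not overlap and the log2 change was -1.32 ± 0.25. These 3 genes were chosen from this comparison, in which 0.0341% of the 11720 genes were called lower (adjusted p under 0.05, limma) and 7.54% were lower without overlap, so nothing is read from their count. Their adjusted p-values were 0.0251 for Fam134b, 0.0153 for Gpcpd1 and 0.0460 for Acer2, and the first gene of any kind outside the threshold had 0.0583. Their place inside it was narrow. Leaving out any 1 of the 6 libraries except ethanol-fed control library 3 ended the call of Fam134b (log2 change -2.18 to -1.98) and of Acer2 (-1.42 to -1.20). Leaving out ethanol-fed control library 2 (adjusted p = 0.121) or overexpression library 3 (0.0784) ended that of Gpcpd1. Hepatocyte markers moved with this comparison: the 10 on the panel summed to 43803 to 51434 CPM in ethanol-fed overexpression libraries and 58135 to 73275 CPM in ethanol-fed controls, without overlap. Of these 10, 9 had negative log2 changes (list median -0.24, against 0.00 over all genes) and 0 were called. Pair-fed, where 8 of the 10 were negative and 0 were called, the sums overlapped, at 45111 to 63469 CPM with overexpression and 60492 to 85202 CPM in controls. The part of these markers in the values of the 7 genes was not tested.

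The second set holds the sulfatase, the adaptor, the Ras association protein and the kelch protein, chosen for high levels in pair-fed overexpressing livers. Arsa measured 107, 122 and 86.9 CPM in pair-fed overexpression libraries, against 56.7, 20.8 and 23.1 CPM in pair-fed controls. Control library 1, the one without Xist, was the highest of its group, and the groups did not overlap (log2 change 1.76 ± 0.30). Pik3ap1 measured 136.3, 177.9 and 128.9 CPM in pair-fed overexpression libraries, against 69.5, 50.7 and 69.6 CPM in pair-fed controls. All overexpression libraries lay above all controls (log2 change 1.21 ± 0.22). Rassf3 measured 126.5, 127.5 and 125.2 CPM in pair-fed overexpression libraries, against 86.5, 52.0 and 39.8 CPM in pair-fed controls. The overexpression libraries were nearly equal, control library 1 was again the highest control, and the groups did not overlap (log2 change 1.15 ± 0.22). Klhdc7a measured 47.9, 53.0 and 60.9 CPM in pair-fed overexpression libraries, against 19.6, 14.4 and 18.7 CPM in pair-fed controls. The gap was clear in every library (log2 change 1.57 ± 0.30). In this comparison 0.0597% of genes were called higher and 6.27% were higher without overlap, and these 4 were chosen from it, so nothing is read from their count. Their adjusted p-values (limma) were 0.0225 for Arsa, 0.0279 for Pik3ap1, 0.0346 for Klhdc7a and 0.0397 for Rassf3, and the first gene outside the threshold had 0.0621. Overexpression library 1, with Yap1 at the level of controls, was the lowest of its group for Klhdc7a and not for Arsa, Pik3ap1 or Rassf3.

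The sex chromosome transcripts moved with Arsa, and within the pair-fed controls also with Rassf3 and Gpcpd1. Arsa was at 17.6 to 26.5 CPM in the 5 libraries with Xist, all pair-fed and none overexpressing YAP, and at 46.0 to 137.1 CPM in the other 13. Pair-fed control library 1, without Xist, exceeded the mean of the 2 control libraries with Xist by 1.33 log2 units for Arsa and by 0.91 for Rassf3, against 0.24 for Klhdc7a and 0.22 for Pik3ap1. In the first set this difference was 0.99 for Gpcpd1, 0.31 for Fam134b and -0.43 for Acer2. Rassf3 measured 65.7 to 74.7 CPM in pair-fed knockouts, all with Xist, and 51.7 to 74.6 CPM in ethanol-fed controls, all without. With control library 1 as the only pair-fed control, the log2 change with overexpression was 0.87 for Arsa and 0.54 for Rassf3. It was 1.41 for Klhdc7a and 1.06 for Pik3ap1, and the values of Arsa and Rassf3 moved most. That setting holds 1 pair-fed control library, so no test is read from it. Leaving out any 1 of the 6 libraries except pair-fed control library 1 ended the calls of Pik3ap1 (highest adjusted p = 0.223), Rassf3 (0.196) and Klhdc7a (0.192), and leaving out control library 2 or 3 or overexpression library 1 or 2 ended that of Arsa (0.163), with all values staying above 0.

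**Figure D2:**
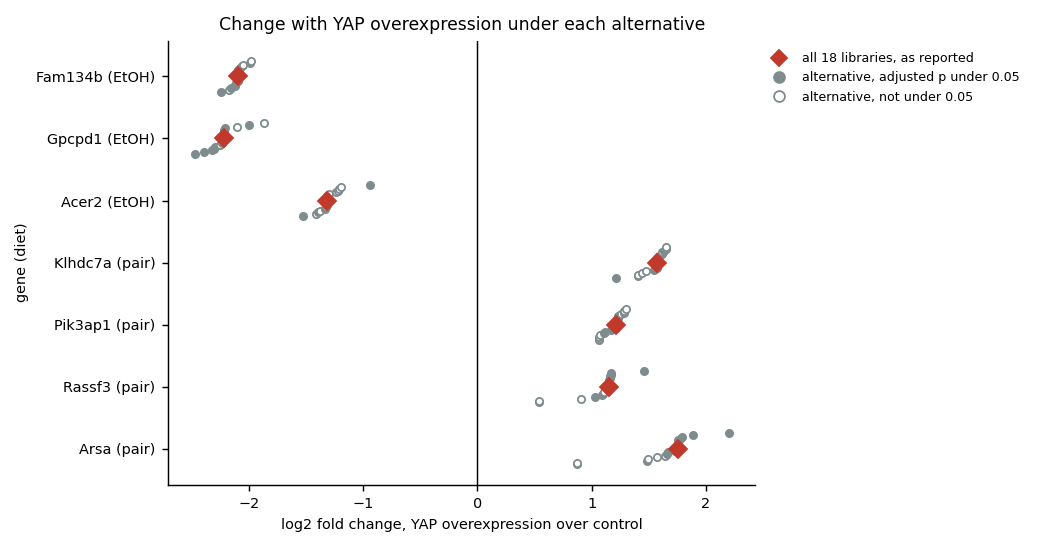
Log2 change of each gene with YAP overexpression over control (x axis) on the diet that chose it (in brackets on the y axis); the diamond is the value from all 18 libraries and each circle 1 alternative fit, filled where the adjusted p is under 0.05. Each gene keeps its sign in each alternative, with values from -2.47 for Gpcpd1 to 2.20 for Arsa, while many circles are open.

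On the diet that did not choose it, none of the 7 genes passed the threshold with YAP overexpression. The diet of choice was taken as the only diet with a call, so this outcome was fixed in advance. Only the sizes and intervals are read. Pair-fed, where 0.145% of genes were called in either direction, the 3 genes that were low on ethanol overlapped with controls. Fam134b measured 122.5, 127.5 and 123.4 CPM in pair-fed overexpression libraries, against 125.8, 98.7 and 104.04 CPM in pair-fed controls. These groups overlapped, and the log2 change of 0.19 had a 95% interval of -0.54 to 0.92 (adjusted p = 0.925, limma). Gpcpd1 measured 74.8, 79.3 and 152 CPM in pair-fed overexpression libraries, against 118, 46.3 and 75.5 CPM in pair-fed controls. It overlapped too (log2 change 0.37, interval -0.36 to 1.09, adjusted p = 0.818). Acer2 measured 20.3, 29.6 and 15.8 CPM in pair-fed overexpression libraries, against 12.3, 17.2 and 16.6 CPM in pair-fed controls, and again overlapped (0.45, interval -0.07 to 0.97, adjusted p = 0.655). The intervals reached down to -0.54 for Fam134b, -0.36 for Gpcpd1 and -0.07 for Acer2. They are not set against the falls on ethanol, which chose the genes. The sign of the small changes was not settled: against only the pair-fed control that lacks Xist, they were -0.02 for Fam134b, -0.29 for Gpcpd1 and 0.74 for Acer2.

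On ethanol, where 0.102% of genes were called in either direction, the 4 genes of the second set lay near their controls. Rassf3 measured 59.4, 53.0 and 66.8 CPM in ethanol-fed overexpression libraries, against 51.7, 52.1 and 74.6 CPM in ethanol-fed controls. The ranges coincided almost wholly (log2 change 0.02, interval -0.44 to 0.49, adjusted p = 0.994, limma). Arsa measured 67.5, 84.7 and 71.1 CPM in ethanol-fed overexpression libraries, against 76.3, 46.0 and 70.3 CPM in ethanol-fed controls. Its groups overlapped (0.24, interval -0.39 to 0.87, adjusted p = 0.910). Pik3ap1 measured 74.2, 75.2 and 96.3 CPM in ethanol-fed overexpression libraries, against 82.3, 108 and 146 CPM in ethanol-fed controls. Its change ran the other way from that on the pair-fed diet without passing the test (-0.42, interval -0.89 to 0.05, adjusted p = 0.631). Klhdc7a measured 19.86, 29.66 and 19.98 CPM in ethanol-fed overexpression libraries, against 21.7, 13.1 and 13.5 CPM in ethanol-fed controls (0.51, interval -0.12 to 1.13, adjusted p = 0.705). Only the highest control library reached into the range of the overexpression libraries.

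The difference of the overexpression effect between the diets, ethanol-fed minus pair-fed, was negative for all 7 genes. It was largest for Gpcpd1 (-2.58 ± 0.49), followed by Fam134b (-2.29 ± 0.49), Acer2 (-1.77 ± 0.35), Pik3ap1 (-1.63 ± 0.32), Arsa (-1.52 ± 0.43), Rassf3 (-1.13 ± 0.31) and Klhdc7a (-1.06 ± 0.42). These values rest on the libraries that chose the genes, and the choice favours a difference of this sign, since it took falls on ethanol and rises on the pair-fed diet. No difference between diets passed the threshold (adjusted p from 0.0907 for Gpcpd1, Acer2 and Pik3ap1 to 0.589 for Klhdc7a, limma). Among all 11720 genes 0 were called (0%), with 847 at an unadjusted p under 0.05, and edgeR on the recovered reads also called 0, with 928. Without pair-fed control library 1, which left only controls with Xist on that diet, 27 of all genes (0.23%) were called, among them 4 of the 7. Their adjusted p-values (limma) were 0.00716 for Gpcpd1, 0.0120 for Arsa, 0.0242 for Rassf3 and 0.0421 for Pik3ap1. The choice favours such calls, so nothing is read from their count. With only pair-fed control library 1 on that diet, the differences were -1.92 for Gpcpd1, -0.63 for Arsa, -0.52 for Rassf3 and -1.48 for Pik3ap1.

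**Figure D3:**
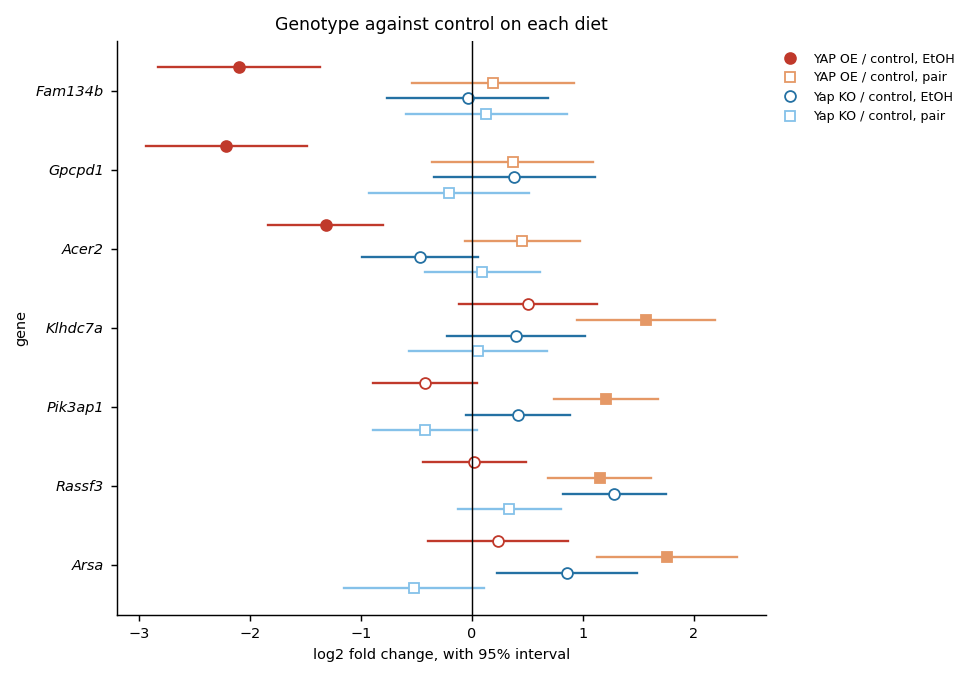
Log2 change against control (x axis) with its 95% interval for the 7 genes (y axis) with YAP overexpression (red and orange) and Yap knockout (blue), on ethanol (circles) and pair-fed (squares); filled symbols passed the adjusted p of 0.05. The only filled symbols are those that chose the genes, and Rassf3 in ethanol-fed knockouts lies at 1.28.

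Deletion of Yap moved none of the 7 genes past the threshold on either diet. The knockout shares its control libraries with overexpression, so both sets of values are given side by side. Pair-fed, where 0.00853% of genes were called, the log2 changes in knockouts were 0.13 for Fam134b, -0.21 for Gpcpd1, 0.09 for Acer2, 0.06 for Klhdc7a, -0.42 for Pik3ap1, 0.34 for Rassf3 and -0.52 for Arsa (adjusted p = 0.999 for each, limma). All 7 overlapped with controls. The interval of Klhdc7a was -0.57 to 0.68 and that of Arsa -1.15 to 0.11. The interval of Arsa is not set against its rise with overexpression, which chose the gene and shares these controls. Arsa measured 19.0, 26.5 and 17.6 CPM in pair-fed knockouts, all with Xist, against 20.8 and 23.1 CPM in the 2 pair-fed controls with Xist and 56.7 CPM in the one without.

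On ethanol, where no library had Xist above Ddx3y and 0.0171% of genes were called, Fam134b was uneven among knockouts. It measured 230, 228 and 946 CPM in ethanol-fed knockouts, against 391, 446 and 310 CPM in ethanol-fed controls. Knockout library 3 was the highest of all 18 libraries and the other two lay below every control, so the log2 change was -0.04 with an interval of -0.77 to 0.69 (adjusted p = 0.988, limma), and -0.72 without library 3. Gpcpd1 measured 229, 199 and 333 CPM in ethanol-fed knockouts, against 169, 306 and 132 CPM in controls (0.38, adjusted p = 0.824). Acer2 measured 23.08, 23.57 and 27.02 CPM in ethanol-fed knockouts, against 40.8, 38.6 and 25.5 CPM in controls (-0.47, interval -0.99 to 0.05, adjusted p = 0.650). These 3 genes overlapped with controls, and the interval of Gpcpd1 was -0.34 to 1.11. The intervals are not set against the falls with overexpression, which chose the genes and share these controls, on their high side.

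Rassf3 came closest to a change in the knockout. It measured 168, 145 and 123 CPM in ethanol-fed knockouts, against 51.7, 52.1 and 74.6 CPM in ethanol-fed controls. Every knockout library lay above every control (log2 change 1.28 ± 0.22), and the adjusted p of 0.0576 was the lowest among the genes not called. Over 18 alternatives the log2 change of Rassf3 stayed between 1.17 and 1.45, and its adjusted p reached 0.359. It passed in 5 of the 18, but in only 1 of the 6 that left out a library (without knockout library 3, 0.0209). The fit with a term for Xist also passed (adjusted p = 0.00575). No library compared here had Xist, so that term left the log2 change at 1.28. The sign was that of overexpression on the pair-fed diet. Arsa measured 129.5, 137.1 and 83.9 CPM in ethanol-fed knockouts, against 76.3, 46.0 and 70.3 CPM in controls. Its groups did not overlap (0.86 ± 0.30), yet the adjusted p was 0.463 (limma). Across all genes, 8.23% did not overlap in this direction in this comparison, against 2 of these 7. Pik3ap1 (0.41, adjusted p = 0.656) and Klhdc7a (0.40, 0.782) overlapped with controls. The difference of the knockout effect between the diets passed the threshold for none of the 7 (highest for Arsa, 1.38 ± 0.43, adjusted p = 0.798), with 0 of 11720 genes called (0%), 666 at an unadjusted p under 0.05, and 0 by edgeR, with 703. The summed level of 14 Kupffer cell and macrophage markers was 268 to 321 CPM in ethanol-fed knockouts and 389 to 770 CPM in ethanol-fed controls, and 0 of the 13 tested were called. The part of these marker genes in the values of Rassf3 and Arsa was not tested, and in bulk liver fewer cells of a type and less RNA per cell cannot be told apart.

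In control livers the 3 genes of the first set were higher on ethanol, but their ethanol-fed control libraries, on the high side, were among those that chose them, so these values are a description and nothing is read from their count. In controls, 316 genes were called (2.7%, with 1.02% higher), and these were 120 higher and 196 lower, or 172 and 120 with TMM scaling. Fam134b was at 382 ± 68.4 CPM in ethanol-fed controls, against 110 ± 14.4 CPM pair-fed (SD, n = 3), higher by 1.79 log2 units (adjusted p = 0.0105, limma). Gpcpd1 was at 202 ± 91.6 CPM in ethanol-fed controls, against 80.1 ± 36.2 CPM pair-fed, higher by 1.33 (0.0440). Acer2 was at 34.98 ± 8.27 CPM in ethanol-fed controls, against 15.3 ± 2.69 CPM pair-fed, higher by 1.12 (0.0185). Pik3ap1 (0.79, adjusted p = 0.0651) and Arsa (1.03, 0.0750) missed the threshold, and Rassf3 (0.05) and Klhdc7a (-0.14) were near 0. With only the pair-fed control that lacks Xist, the changes were 1.58 for Fam134b, 0.68 for Gpcpd1, 1.41 for Acer2, 0.14 for Arsa and -0.55 for Rassf3. No test is read from that setting, which holds 1 pair-fed control library. Leaving out ethanol-fed control library 2 ended the call of Fam134b (adjusted p = 0.0608). That of Gpcpd1 ended without ethanol-fed control 1 or 2 or pair-fed control 2 or 3 (highest adjusted p = 0.222), and that of Acer2 without ethanol-fed or pair-fed control 1 or 2 (0.0946).

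**Figure D4:**
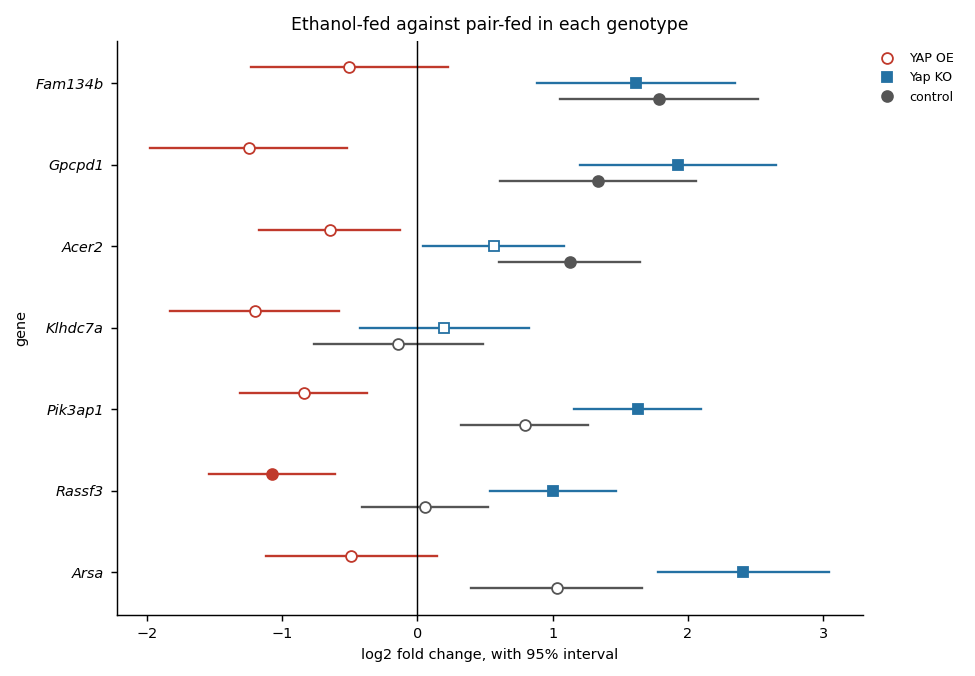
Log2 change of ethanol-fed over pair-fed livers (x axis) with its 95% interval for the 7 genes (y axis) with YAP overexpression (red), Yap knockout (blue) and control virus (grey); filled symbols passed the adjusted p of 0.05. All 7 red points lie below 0, from -0.49 for Arsa to -1.25 for Gpcpd1, and all 7 blue points above 0.

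The ethanol response of knockouts shares no library with the overexpression comparisons. There 9.9% of genes were called, 4.1% higher, and 5 of the 7 rose. The calls were 481 higher and 679 lower, or 687 and 568 with TMM scaling. Arsa measured 129.5, 137.1 and 83.9 CPM in ethanol-fed knockouts, against 19.0, 26.5 and 17.6 CPM in pair-fed knockouts, a rise of 2.41 ± 0.30 (adjusted p = 0.000138, limma). Pik3ap1 measured 134, 123 and 188 CPM in ethanol-fed knockouts, against 38.1, 53.8 and 48.9 CPM in pair-fed knockouts, a rise of 1.63 ± 0.22 (0.000332). These 2 genes and 4 others did not overlap between the diets, against 11.7% of all genes that were higher without overlap. Gpcpd1 rose by 1.92 (adjusted p = 0.00225) to 254 ± 70.5 CPM in ethanol-fed knockouts, against 66.2 ± 18.8 CPM pair-fed (SD, n = 3), and Fam134b by 1.62 (0.00714) to 468 ± 414 CPM, against 119.7 ± 11.01 CPM. Rassf3 rose by 1.00 (0.00860), to 145 ± 22.5 CPM in ethanol-fed knockouts, against 71.6 ± 5.095 CPM pair-fed. Acer2 (0.56, adjusted p = 0.157) and Klhdc7a (0.20, 0.713) did not pass. All pair-fed knockouts had Xist and no ethanol-fed knockout did, so in this genotype alone diet and sex chromosome transcripts cannot be told apart. With a term for Xist, set by the 3 pair-fed controls, 0 of the 7 and 0 of all genes were called, so nothing is read from that count. The changes were then 1.08 for Arsa, 1.41 for Pik3ap1 (adjusted p = 0.368, limma), 0.94 for Gpcpd1, 1.31 for Fam134b and 0.09 for Rassf3. The Kupffer cell markers also moved here, 9 of the 13 tested lower, with a summed 268 to 321 CPM in ethanol-fed knockouts and 640 to 801 CPM in pair-fed knockouts. Their part in the rise was not tested. For Pik3ap1, which B cells and myeloid cells use, the B cell marker Ms4a1 was at 0 CPM in the median library and at most 0.427 CPM in any. The 9 B and plasma cell markers on the panel summed to 3.66 to 4.71 CPM in ethanol-fed knockouts and 8.78 to 16.2 CPM in pair-fed knockouts, with 1 of 3 tested, Cd22, lower.

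The overexpression libraries of both diets chose the genes, on the low side on ethanol and on the high side pair-fed, so a lower level on ethanol within this genotype was favoured by the choice. The values are a description, and nothing is read from the counts or from the call of Rassf3. All 7 genes were lower on ethanol without overlap, as were 14.6% of all genes. No library here had Xist. Rassf3 measured 59.4, 53.0 and 66.8 CPM in ethanol-fed overexpression libraries, against 126.5, 127.5 and 125.2 CPM in pair-fed ones, a log2 change of -1.07 (adjusted p = 0.0243, limma). It was the 1 gene of the 7 that passed, where 1.15% of genes were called and 0.751% lower. The calls were 47 higher and 88 lower, or 78 and 51 with TMM scaling. Leaving out any 1 library except ethanol-fed overexpression library 1 ended the call of Rassf3 (highest adjusted p = 0.1002), with a log2 change of -1.16 to -0.99. Klhdc7a measured 19.86, 29.66 and 19.98 CPM in ethanol-fed overexpression libraries, against 47.9, 53.0 and 60.9 CPM in pair-fed ones. The gap was wide, yet the change of -1.20 had an adjusted p of 0.0536. The other changes were -1.25 for Gpcpd1 (0.0805), -0.84 for Pik3ap1 (0.0680), -0.65 for Acer2 (0.225), -0.50 for Fam134b (0.550) and -0.49 for Arsa (0.497).

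In order of group means, Fam134b was highest in ethanol-fed knockouts and controls, whose libraries overlapped, and lowest in ethanol-fed overexpression. The first place of knockouts rests on library 3, at 946 CPM. The median was 230 CPM in ethanol-fed knockouts and 391 CPM in ethanol-fed controls. The 3 pair-fed groups between them overlapped one another, with a gap above and a gap below. Gpcpd1 had the same ends, with no gap between neighbours except the last. Acer2 had no gap between any neighbouring groups. Klhdc7a stood apart in pair-fed overexpression alone, with a gap to the next group and overlaps among the other 5. Pik3ap1, Rassf3 and Arsa were each highest in ethanol-fed knockouts, overlapping with pair-fed overexpression. Rassf3 had its only gap below these 2 groups, with means of 126.4 CPM above it (overexpression, pair-fed) and 71.6 CPM below it (knockout, pair-fed). Arsa and Pik3ap1 were lowest in pair-fed knockouts, with 1 gap each between neighbouring groups. For Pik3ap1 it lay between ethanol-fed overexpression and pair-fed controls. For Arsa it lay between pair-fed and ethanol-fed overexpression, at 86.9 against 84.7 CPM. Ethanol-fed knockouts, the highest group for Arsa, reached across that gap, down to 83.9 CPM.

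Some of the 7 shared their pattern over the 18 libraries, as a description of log2(CPM + 1) in libraries that share group and depth. Pearson's r was 0.86 between Fam134b and Gpcpd1, 0.75 between Fam134b and Acer2 and 0.84 between Pik3ap1 and Arsa. Within groups, after each group's mean was removed, r was 0.45, 0.18 and 0.08 for the same pairs, and 0.68 for Rassf3 with Arsa. The genes most like Fam134b among 8450 were Thbd (r = 0.90), Cd14 (0.87) and Inhbb (0.86), and those most like Gpcpd1 were Snx10 (0.89), Pnpla2 (0.84), the adipose triglyceride lipase, and Tbl1xr1 (0.82). Acer2 was nearest to Gja1 (0.83), Rhob (0.82) and Prkch (0.82). Klhdc7a was nearest to Pard3b (0.86), Nr1d1 (0.86), the clock repressor REV-ERB alpha, and Sh3bgrl2 (0.83). Pik3ap1 was nearest to Irf2bpl (0.90), Prdm2 (0.89) and Ubap1 (0.87), and Rassf3 to Acp6 (0.81), Atg12 (0.78) and Zfp445 (0.77). Arsa was nearest to Kdm5d (0.93), Cyp2d9 (0.91) and Uty (0.89), of which Kdm5d and Uty lie on the Y chromosome and Cyp2d9 is known as a male-biased P450 gene in mouse liver.

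Relatives of the 7 genes are given with their values. The 4 genotype comparisons called 0.00853% to 0.145% of all genes, so lists of this size would hold few or no calls in any case and nothing is read from the counts of 0 that follow. Of the other ER-phagy receptors 0 of 8 tested were called in any of these comparisons. Fam134a, a sister of Fam134b, had log2 differences of -0.29 on ethanol (adjusted p = 0.710, limma) and -0.04 pair-fed (0.968) with overexpression, and Fam134c of -0.07 (0.974) and 0.23 (0.768). Acer3, a ceramidase of the ER and Golgi, differed by -0.06 on both diets with overexpression, and Acer1 held almost no reads. Gde1, another glycerophosphodiester phosphodiesterase, differed by -0.35 on ethanol with overexpression (0.765). Arsb, the arylsulfatase of dermatan sulfate, differed by 0.13 pair-fed (0.914) with overexpression. In the Rassf family, none of the 7 other tested members was called in a genotype comparison, with log2 differences from -1.04 for Rassf4 (adjusted p = 0.467) to 0.68 for Rassf6 (0.817) on ethanol with overexpression. In each genotype comparison 0 non-members were called among 15 core autophagy genes, 12 of glycerophosphocholine and phosphatidylcholine turnover, 18 of ceramide turnover, 19 lysosomal sulfatases and hydrolases and 13 of phosphoinositide 3-kinase signalling. In the ethanol response of knockouts, where 679 of the 11720 genes were called lower and 481 higher, relatives were called in both directions. Of 19 lysosomal enzymes other than Arsa, 4 fell (list median of the log2 change -0.28, against -0.05 over all genes) while Arsa rose. In knockouts diet and sex chromosome transcripts cannot be told apart, and the rise of Arsa was 2.41, or 1.08 with a term for Xist. With that term 0 of all genes were called. Of 10 RASSF family and MST kinase genes, Rassf1 rose by 1.15 (adjusted p = 0.0109) while Rassf4 and Rassf7 fell (list median -0.12), and Fam134a fell by 0.58 (0.0381) while Fam134b rose. In overexpressing livers the ER-phagy receptor Calcoco1 fell with ethanol by 1.31 (0.0396). Of 20 YAP target genes, 1 was called with overexpression pair-fed: Cyr61 rose in pair-fed overexpressing livers to 23.5 ± 7.19 CPM, against 8.21 ± 0.72 CPM in pair-fed controls (log2 change 1.37, adjusted p = 0.0279). On ethanol 0 of the 20 were called with overexpression and 8 had positive log2 changes (list median -0.09), with 0.52 for Cyr61 (0.569) and -0.37 for Ctgf (0.889). Within overexpressing livers, both of these targets fell with ethanol, Cyr61 by 1.16 (adjusted p = 0.0306) and Ctgf by 1.97 (0.0279). Of the 20 targets, 3 were called lower and 1 higher there, where 0.751% of all genes were called lower. Ethanol also lowered targets in the other genotypes, with 3 of the 20 called lower in knockouts and 1 in controls, and 0 higher in both. In controls 196 of the 11720 genes were called lower.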

How the data were processed

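Liver RNA of 18 libraries was measured with the Ion AmpliSeq mouse transcriptome panel. The authors deposited a series table in CPM (23930 genes, scaled to the library total) and, per library, log2(RPM + 1) values made with ampliSeqRNA 5.10.1.2, per the file headers. The log2 values deposited differ from log2(CPM + 1) of the table by at most 2e-06, and all CPM are whole reads within 0.02 reads. The aligner and the build are not stated in any source used here.

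The 11720 genes that reached 1 CPM in 3 or more libraries were fitted as log2(CPM + 1), a pseudocount of 1, with 1 mean for each of 6 groups, in limma 3.58.1 (lmFit, eBayes with trend; R 4.3.3). Tests were two-sided, with Benjamini-Hochberg adjustment over all genes of a comparison and a threshold of 0.05. An edgeR 4.0.16 quasi-likelihood fit to the recovered reads, other filters, pseudocounts and scalings, blocks, a term for Xist and leaving out each library were alternatives. The text names the 7 genes, Yap1, Cyr61, family relatives, called list members and, for each gene, the 3 most correlated genes with a mean of at least 5 CPM. The 7 genes and all lists were chosen with earlier results of these data known. The steps were tested on simulated data. Some list members are not reported here by name, though they stay in the fits and counts.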

Additional observations from a re-analysis of the deposited data

How the results depend on the processing

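The 7 genes gave 3 calls with overexpression on ethanol and 4 pair-fed, 0 in both knockout comparisons, 1, 5 and 3 in the ethanol responses of overexpressing, knockout and control livers, and 0 in both interactions. No called value changed sign in any alternative. Mainly the larger shifts in these counts are listed next, so a count that is not listed need not be unchanged. For example, array weights also added Pik3ap1 for ethanol in controls. Fitting only the libraries compared also ended the calls of Acer2 with overexpression on ethanol and of Fam134b for ethanol in knockouts. Without a filter on low values the overexpression counts became 0 on ethanol and 1 pair-fed, and with a block for the barcode range 0 and 2. Fitting only the libraries compared gave 1 (overexpression pair-fed), 4 (ethanol in overexpression), 1 (ethanol in controls) and 1 (overexpression interaction). Array weights gave 2 (knockout on ethanol), 4 (ethanol in overexpression) and 3 (overexpression interaction). A pseudocount of 10 gave 1 (knockout on ethanol) and 2 (ethanol in overexpression), quantile scaling 1 (knockout on ethanol) and 5 (ethanol in controls), and a filter of 10 CPM gave 2 (ethanol in overexpression). A term for Xist gave 0 (overexpression pair-fed), 1 (knockout on ethanol) and 0 in the ethanol responses of knockouts and of controls. With that term 1 of all genes was called with overexpression pair-fed and 0 for ethanol in knockouts. The pair-fed control without Xist alone left 1 pair-fed control library, so no count is read from that setting. It left no value for the ethanol-diet comparisons, ethanol in overexpression, ethanol in knockouts or the knockout interaction. The cause of these shifts was not tested, except that the last setting and the fits to fewer libraries hold fewer samples. Leaving out 1 library gave 0 to 3 (overexpression on ethanol), 0 to 4 (pair-fed), 0 to 1 (knockout on ethanol), 0 (knockout pair-fed), 0 to 1, 5 and 0 to 3 (ethanol in overexpressing, knockout and control livers), 0 to 4 (overexpression interaction) and 0 (knockout interaction). A lone library was then assumed to vary like the others.

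The labels number replicates 1 to 3 in every group without saying what a number shares. Barcodes of same-numbered libraries lay in a common range, except ethanol-fed control library 1, whose barcode lay in the range of replicate 2. Ethanol-fed controls thus had no library in the first range. With a block for that range, none of the genes chosen on ethanol kept its call there (adjusted p = 0.0536 to 0.124, limma). Deviations of same-numbered libraries had a median correlation of 0.03 (45 pairs, 6 of them over 0.1), against -0.01 for 90 other pairs, so the numbers were not taken as pairs. With the replicate number as a block, 2 genes were called with overexpression on ethanol and 2 pair-fed. Over all genes the calls ranged widely between alternatives: 0 to 71 around 12 for overexpression on ethanol, 1 to 86 around 17 pair-fed, 1 gene to 0.896% of genes around 2 for the knockout on ethanol, and 17 to 505 around 135, 0 to 2235 around 1160 and 19 to 537 around 316 for ethanol in overexpressing, knockout and control livers.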
